A study of Solanum tuberosum with 12 samples.

Results

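The transcripts described here are the 580 transcripts of potato leaf that the authors listed as changed by high temperature at both plant ages. They were drawn from 6438 transcripts listed at either age, 1447 at 3 weeks and 5571 at 8 weeks. The quantity measured on them is the interaction of heat and age, which is the heat effect at 8 weeks minus the heat effect at 3 weeks, each written as the log2 ratio of high to normal temperature. The 580 transcripts were sorted into 4 direction classes by whether their mean level was higher (up) or lower (down) at high temperature, first at 3 weeks and then at 8 weeks. The classes are named up/up, down/down, up/down and down/up in that order of ages.

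The plants were potato (Solanum tuberosum) of the cultivar Desiree, raised as plantlets on agar medium and then moved to soil. Normal temperature (NT) meant light at 22 °C and dark at 16 °C, and high temperature (HT) meant light at 35 °C and dark at 29 °C, with 12 h of each per day in both. The upper 5 leaves were taken after 3 or 8 weeks, and strand-specific libraries were made from their poly(A) RNA. Each of the 4 groups, NT and HT at 3 weeks and NT and HT at 8 weeks, held 3 libraries, 12 in all. Separate plants are not named in the labels as the source of the replicates. The p-values therefore cover only the spread among these libraries, and that spread may be technical.

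Heat unfolds proteins, and plant cells answer with small heat shock proteins, which hold unfolding proteins, and with larger chaperones that refold them. A leaf also changes as the plant ages. Young leaves make the chlorophyll-binding antenna proteins of the photosystems, the enzymes that loosen cell walls and the histones of dividing cells, and older leaves commonly make pathogenesis-related proteins and carriers that move nitrogen compounds out of the blade. Potato also makes inhibitors of proteases, among them multicystatin and the Kunitz-type inhibitors, which are known from tubers and from wounded or insect-damaged leaves.

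Library totals ran from 52514661 to 66602938 counts, and the 580 transcripts held between 0.845% and 1.52% of a library. Levels are given as CPM, which scales the counts of a transcript to the library total, in the order of replicates 1, 2 and 3. Markers of leaf mesophyll were present: the 7 listed transcripts of light harvesting and photosystems summed to between 5711 and 6406 CPM at NT and 1732 and 1944 CPM at HT at 3 weeks, and to between 81.96 and 94.3 CPM at NT and 321 and 1163 CPM at HT at 8 weeks. Of these 7, 4 were down/up and 3 were up/up, so the sums do not describe each member. Rubisco activase, a further mesophyll marker, was higher at HT at both ages. It had 35.6 to 44.0 CPM at NT and 240 to 380 CPM at HT at 3 weeks. At 8 weeks it had 7.44 to 12.5 CPM at NT and 187 to 546 CPM at HT. The table holds only transcripts listed as changed, so a marker that is not in it was not measured here. A library of HT at 8 weeks, replicate 1, stood apart from the other 2 of its group, and a library of NT at 3 weeks, replicate 1, was low for many down/down transcripts. Their values stand beside the results they touch. The leaf is a bulk sample, in which fewer cells of a type and less RNA per cell cannot be told apart.

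Most of these transcripts were listed in the same direction at both ages, and 147 of the 580 (25.3%) were listed in opposite directions. The up/up class held 270 transcripts, the down/down class 163, the up/down class 92 and the down/up class 55. No transcript changed class under the other scalings of the libraries. The authors listed only transcripts with a large fold change at each age, which largely fixed that result beforehand, so it is no support for the classes. With group medians in place of group means 9 changed class, and at most 3 did when any 1 library was left out. In 479 of the 580 (82.6%) the 3 HT libraries lay on one side of the 3 NT libraries at both ages, a share that the authors' own selection on these libraries largely fixes. The median heat effects at 3 and 8 weeks were 2.26 and 3.15 in up/up, -2.06 and -2.999 in down/down, 2.15 and -2.73 in up/down, and -1.84 and 3.16 in down/up. These heat effects are descriptions with no test, since the authors listed the transcripts on them.

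**Figure D1:**
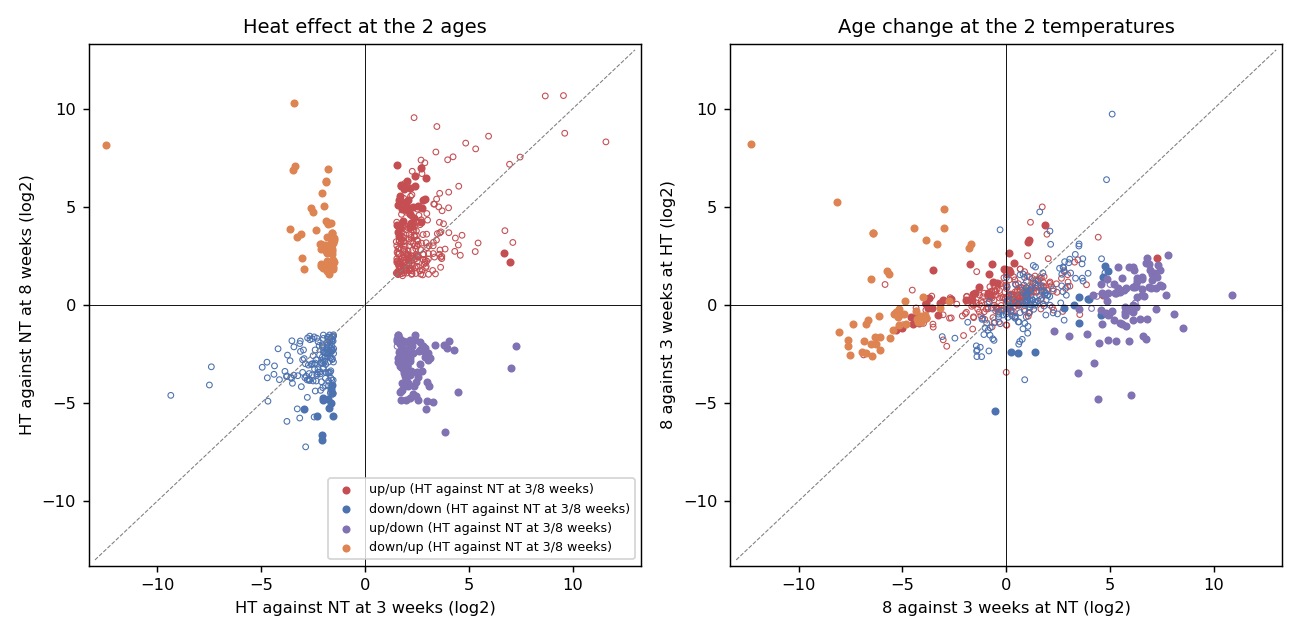
Each point is 1 of the 576 tested transcripts, coloured by direction class, and filled where the interaction of heat and age was called. The left panel plots the log2 ratio of HT to NT at 8 weeks against that at 3 weeks, and the right panel plots the log2 change from 3 to 8 weeks at HT against that at NT, with a dashed line of equality. The gap around 0 in the left panel is the authors' selection, and in the right panel up/down and down/up lie far to the right and left but near 0 in height.

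The interaction was called, at an adjusted p threshold of 0.05 in edgeR's quasi-likelihood test, for 194 of the 576 transcripts tested (33.7%), of which 91 (15.8%) were higher and 103 (17.9%) were lower. In up/down 87 of 91 tested were called lower and in down/up 55 of 55 were called higher. The sign there follows from the class, and the authors' selection of a log2 fold change of 1.5 or more at each age fixed a large interaction beforehand, so these counts and the p-values of single transcripts in both classes are no support for a difference. In up/up, 36 of 269 tested were called higher and 2 lower, so that most up/up calls had the larger heat effect at 8 weeks. In down/down, 14 of 161 were called lower and 0 higher. At an unadjusted p under 0.05 there were 64 higher and 4 lower in up/up, and 0 higher and 26 lower in down/down. DESeq2 with the same library totals called 49 higher and 1 lower in up/up, and 0 higher and 19 lower in down/down. The counts in up/up and down/down depend on how libraries are scaled. With TMM estimated over the listed transcripts, up/up had 99 higher and 0 lower and down/down 3 higher and 3 lower. With DESeq2's own size factors the counts were 89 and 0 in up/up, and 4 and 12 in down/down. Over all tested transcripts the split of higher and lower calls was 157 and 82 with TMM and 139 and 101 with DESeq2's own size factors. The median interaction of all tested transcripts was -0.03, against 1.26 with TMM, 0.73 with DESeq2's own size factors and -0.33 without the shift described in the processing notes.

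The product names differed between the classes. Small heat shock proteins were all in up/up, 11 of 11. The 16 pathogenesis-related and defence proteins were mostly in up/down, with 9 there, 4 in up/up and 3 in down/down. Of the 10 proteinase inhibitors and patatins, 6 were in down/up and 2 in up/down. Of the 7 transcripts of light harvesting and photosystems, 4 were in down/up and 3 in up/up. The 22 transcripts with a cell wall product name had 6 in down/up, 8 in up/up and 8 in down/down, and wall proteins under other names were not counted. Cytochrome P450 enzymes had 6 of 12, UDP-dependent and other glycosyltransferases 7 of 15, and transporters of ions, nitrogen compounds and ABC type 7 of 18 in up/down. Over all 580 transcripts the shares were 46.6% in up/up, 28.1% in down/down, 15.9% in up/down and 9.48% in down/up. A further 161 of the 580 products (27.8%) had no known function, and 9 of these were up/down.

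**Figure D2:**
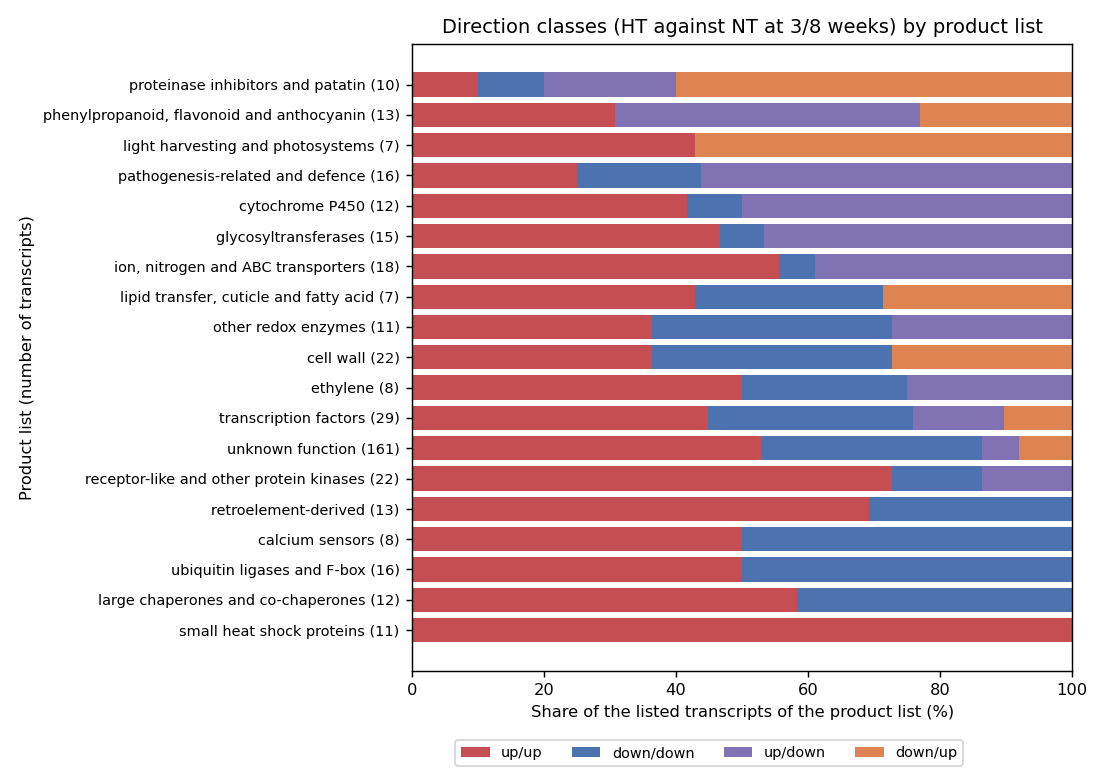
The bars give, for each product list of 7 or more transcripts, the share of its transcripts in each direction class, with the number of transcripts in brackets. Small heat shock proteins are in up/up alone (11 of 11), 6 of 10 proteinase inhibitors and patatins are in down/up, and 9 of 16 pathogenesis-related and defence proteins are in up/down.

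The 55 down/up transcripts included 6 proteinase inhibitors, 6 cell wall proteins, 4 antenna proteins of light harvesting and 3 of the 4 listed histones and kinesins. From 3 to 8 weeks at NT, 53 of 55 fell, against 14.9% of all tested transcripts, with a median log2 change of -5.30. At HT 7 rose, 2 fell and the others did not pass the test, with a median of -0.57, while 5.38% of all tested transcripts rose at HT and 2.08% fell. The balance turned without replicate 1 of HT at 8 weeks, to 5 that rose and 17 that fell. Of the 43 calls at HT over all tested transcripts, 9, 11 and 8 remained without replicates 1, 2 and 3 of HT at 3 weeks, and 41, 24 and 30 without replicates 1, 2 and 3 of HT at 8 weeks. Each age change at HT given below as called was lost without at least 1 of the 3-week HT libraries, except those of the AGL8 homolog and DEA1. All age changes use plain library totals without the shift, so they differ by up to 0.15 on the log2 scale from the ratio of the CPM values printed here. The age changes share their libraries with the heat effects and are set beside them only. The interaction is the age change at HT minus that at NT, so in down/up the NT change lies under the HT change by construction. The age counts of this class are therefore a description.

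Chlorophyll a/b binding proteins hold the pigments of the light-harvesting antenna, and 4 of them were in down/up. The most abundant (PGSC0003DMG400008300) had 2594, 2739 and 2919 CPM at NT and 922, 968 and 862 CPM at HT at 3 weeks. At 8 weeks it had 29.9, 30.0 and 33.3 CPM at NT and 671, 125 and 185 CPM at HT. The 4 groups did not overlap, and their order was NT at 3 weeks, HT at 3 weeks, HT at 8 weeks and NT at 8 weeks. Its interaction was 4.98 ± 0.83 (SE) on the log2 scale (edgeR, adjusted p = 0.000906), from heat effects of -1.58 at 3 weeks and 3.40 at 8 weeks. It fell with age at NT by 6.32 on the log2 scale. At HT its log2 age change of -1.64 did not pass the test.

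A chlorophyll a-b binding protein 3C (PGSC0003DMG400013414) had the same order of groups. Its levels were 1518, 1559 and 1796 CPM at NT and 420, 470 and 438 CPM at HT at 3 weeks, and 13.7, 13.8 and 12.9 CPM at NT and 199, 29.1 and 43.5 CPM at HT at 8 weeks. In both antenna transcripts replicate 1 of HT at 8 weeks was the highest of its group. The log2 age change of the 3C transcript was -6.76 at NT and -2.44 at HT, and both passed the test. The call at HT was lost with the removal of any of 8 single libraries, 5 of them HT libraries, although the sign stayed. Antenna proteins come from a family of near-identical genes, and the authors' counting may have split reads between members, so the values of single members are uncertain.

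Chlorophyllase 2 (PGSC0003DMG400019347), an enzyme known to take the phytol tail off chlorophyll, was chosen after its values were seen. It had 58.4, 67.7 and 54.3 CPM at NT and 19.1, 11.1 and 22.7 CPM at HT at 3 weeks, and 0.630, 0.633 and 1.03 CPM at NT and 22.8, 6.52 and 10.7 CPM at HT at 8 weeks. The HT libraries of the 2 ages overlapped, and the NT libraries of 8 weeks were under all others. Its interaction was 5.89 (adjusted p = 0.000264). The other photosystem transcripts took another course: 2 photosystem II 5 kDa proteins and 1 photosystem II 10 kDa polypeptide were up/up, rose with age at NT, and had interactions between -1.50 and -0.81 that did not pass the test. That of the 10 kDa polypeptide (PGSC0003DMG400002312) had an unadjusted p of 0.0398 (edgeR), and without the shift it was the 1 member of the list called lower.

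Proteinase inhibitors had the largest interactions of the down/up class that the naming rule picked, along with a stigma expressed protein. Multicystatin, an inhibitor of cysteine proteases with repeated cystatin domains, is given by PGSC0003DMG400005950. It had 75.3, 50.7 and 68.0 CPM at NT and 2.73, 4.81 and 9.94 CPM at HT at 3 weeks, and 0.532, 0.698 and 0.810 CPM at NT and 181, 13.2 and 49.7 CPM at HT at 8 weeks. HT libraries were under all NT libraries at 3 weeks and above all of them at 8 weeks. The interaction was 10.37 ± 1.26 (adjusted p = 0.000264), and it lay between 9.0 and 11 when any 1 library was left out. Multicystatin fell with age at NT by 6.41 on the log2 scale and rose at HT by 3.65. The rise was not called without any 1 of the 3 HT libraries of 3 weeks. Another multicystatin (PGSC0003DMG400026899), with 125, 10.2 and 36.3 CPM at HT and 8 weeks, had an interaction of 10.42, and reads may be shared between them.

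Aspartic protease inhibitor 5 (PGSC0003DMG400009513) had 23.8, 14.6 and 13.5 CPM at NT and 2.57, 5.20 and 6.59 CPM at HT at 3 weeks. At 8 weeks it had 0.669, 0.893 and 4.32 CPM at NT and 382, 25.1 and 67.2 CPM at HT. The HT libraries at 8 weeks were above all others, and replicate 1 was the highest of them. Its interaction was 8.18 ± 1.45 (adjusted p = 0.00112). A Kunitz-type protease inhibitor (PGSC0003DMG400009514) had an interaction of 7.53 (adjusted p = 0.00233), which was 4.89 without replicate 1 of HT at 8 weeks. Proteinase inhibitor type-2 CEVI57 (PGSC0003DMG400015289), of the family that blocks serine proteases, had 7.21 (adjusted p = 0.00215).

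The 10 proteinase inhibitors and patatins are also the markers of storage tissue in the lists used here. Summed over the list, their levels ranged from 144 to 170 CPM at NT and 19.99 to 44.4 CPM at HT at 3 weeks, and from 150 to 252 CPM at NT and 68.4 to 724 CPM at HT at 8 weeks, and no member was at 0 in a whole group. The list includes an ethylene-responsive proteinase inhibitor 1 and another Kunitz-type inhibitor that were up/down, and patatin 3, which was down/down. The median position of the list in HT libraries at 8 weeks, relative to the NT mean of that age, was 4.47 in replicate 1, 1.58 in replicate 2 and 2.20 in replicate 3 on a log2 scale. The part of storage tissue in these levels was not tested.

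Of the 22 cell wall proteins 6 were in down/up, and in the whole list 8 interactions were called higher and 2 lower, against 15.8% and 17.9% of all tested transcripts. For the 6 in down/up the selection fixed a large interaction, so their calls are no support for a difference. Pectinesterase (PGSC0003DMG402019255) removes methyl groups from pectin, and it had 323, 271 and 259 CPM at NT and 86.9, 67.6 and 91.0 CPM at HT at 3 weeks. At 8 weeks it had 16.8, 7.84 and 15.8 CPM at NT and 62.6, 49.0 and 36.6 CPM at HT, with no overlap between any of the 4 groups. Its interaction was 3.67 ± 0.59 (adjusted p = 0.000811), and its 3 HT libraries at 8 weeks lay closer together than those of the antenna proteins. Another pectinesterase (PGSC0003DMG400019256), chosen after its values were seen, had an interaction of 3.68. Fasciclin-like arabinogalactan protein 1 (PGSC0003DMG400009400), a wall glycoprotein, fell with age by 6.06 on the log2 scale at NT and by 2.32 at HT, and its interaction was 4.04 (adjusted p = 0.00237).

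Histones and a kinesin, which serve chromosome packing and movement in dividing cells, were down/up as well. Histone H2A (PGSC0003DMG400024029) had 39.6, 29.5 and 24.9 CPM at NT and 9.0, 11.1 and 12.5 CPM at HT at 3 weeks. At 8 weeks it had 0.197, 0.373 and 0.666 CPM at NT and 9.86, 0.871 and 0.828 CPM at HT. Replicate 1 of HT at 8 weeks stood well above the other 2. Its interaction was 4.74 (adjusted p = 0.00845), and 2.56 without that library. Kinesin heavy chain (PGSC0003DMG400024777) had an interaction of 4.11 (adjusted p = 0.00263). The remaining member of the list, a kinesin (PGSC0003DMG400023112), was up/up, with heat effects of 1.73 at 3 weeks and 2.33 at 8 weeks. Its interaction of 0.60 did not pass the test, so sums over the list do not describe each member. Summed over the 4 histones and kinesins of the list, markers of dividing cells, the levels ranged from 79.2 to 112 CPM at NT and 27.4 to 36.4 CPM at HT at 3 weeks, and from 1.44 to 2.74 CPM at NT and 3.67 to 28.0 CPM at HT at 8 weeks. No member was at 0 in a whole group, and the part of dividing cells in the down/up class was not tested.

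Other down/up products served hormone synthesis, lipid transfer and regulation. Gibberellin 20-oxidase (PGSC0003DMG400027963), named Ga20 oxidase in the files, makes precursors of active gibberellin and was chosen after its values were seen. It had 11.9, 18.7 and 25.1 CPM at NT and 1.65, 2.5 and 2.70 CPM at HT at 3 weeks, and 0.729, 0.276 and 0.684 CPM at NT and 2.23, 4.02 and 2.5 CPM at HT at 8 weeks. Its HT libraries overlapped between the ages, and its interaction was 5.39 (adjusted p = 0.000339). Nonspecific lipid-transfer protein AKCS9 (PGSC0003DMG400021761), of a family that binds and carries lipids, had an interaction of 4.89 ± 0.74 (adjusted p = 0.000609). A stigma expressed protein (PGSC0003DMG400010136) had 0.639 to 50.2 CPM in the HT libraries at 8 weeks, where replicate 1 was the highest, and an interaction of 13.7 that ranged from 10.2 to 16.5 with single libraries left out. The C2H2L domain transcription factor (PGSC0003DMG402024472) was near 0 at NT and 8 weeks, and its interaction of 6.70 was 10.4 without replicate 1 of that group.

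**Figure D3:**
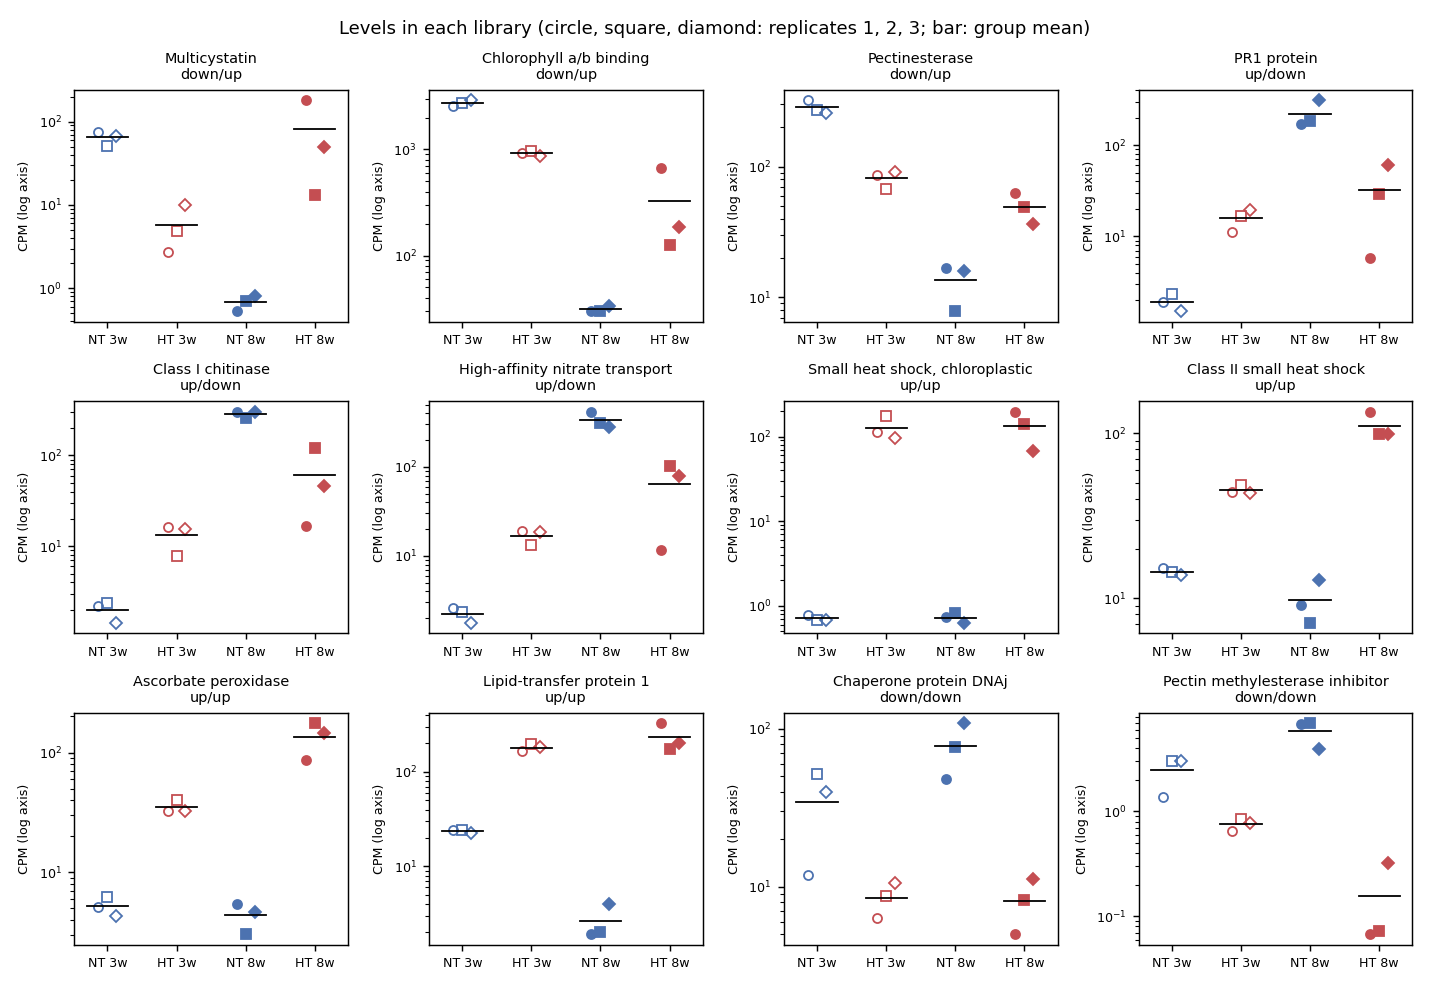
Levels of 12 transcripts in each library, in CPM on log axes, with 3 libraries per group (circle, square and diamond for replicates 1, 2 and 3) and a bar at the group mean. Multicystatin, chlorophyll a/b binding protein and pectinesterase cross between the ages one way, PR1, class I chitinase and the nitrate transport component cross the other way, and the heat shock proteins keep their direction.

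The 92 up/down transcripts included 9 pathogenesis-related and defence proteins, 7 transporters, 7 glycosyltransferases, 6 cytochrome P450 enzymes and 6 of phenylpropanoid metabolism. At NT all 91 tested transcripts rose with age, against 31.2% of all tested, with a median log2 change of 5.91, and at HT 1 rose, 4 fell and the others did not pass the test, with a median of 0.48. Without replicate 1 of HT at 8 weeks 22 rose at HT and 4 fell. So at 3 weeks the HT level was above a low NT level, and at 8 weeks it was below a high NT level. Under TMM 87 and under DESeq2's own size factors 89 of them rose at NT. In up/down the age change at NT lies above that at HT by construction, so the age counts of this class are a description.

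Class I chitinase (PGSC0003DMG400010283), which cuts the chitin of fungal walls, had 2.19, 2.38 and 1.44 CPM at NT and 16.3, 7.76 and 15.5 CPM at HT at 3 weeks. At 8 weeks it had 303, 256 and 301 CPM at NT and 16.7, 120 and 46.3 CPM at HT. The NT libraries of 8 weeks were above all others and the NT libraries of 3 weeks were under all others. Its interaction was -4.95 ± 0.89 (adjusted p = 0.00124), and its log2 age change was 7.31 at NT, which passed the test, and 2.05 at HT, which did not.

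PR1 protein (PGSC0003DMG400005111), a secreted protein of the salicylic acid response, had 1.93, 2.32 and 1.52 CPM at NT and 11.1, 16.8 and 19.2 CPM at HT at 3 weeks. At 8 weeks it had 169, 183 and 310 CPM at NT and 5.83, 29.3 and 60.7 CPM at HT. The HT libraries of both ages overlapped, and replicate 1 of HT at 8 weeks was the lowest HT library. The interaction was -5.82 ± 0.98 (adjusted p = 0.000906). The 3 other transcripts named PR1 or PR-1 were up/down too, with interactions between -6.36 and -4.99, and these near copies may share reads.

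Osmotins, antifungal proteins of the thaumatin family, were in more than 1 class. Osmotin OSML15 (PGSC0003DMG400003058) had 0.383, 0.215 and 0 CPM at NT and 1.29, 7.32 and 5.03 CPM at HT at 3 weeks, and 7.68, 1.56 and 2.56 CPM at NT and 0.118, 0.0726 and 0.341 CPM at HT at 8 weeks. Its interaction was -8.96 ± 1.60 (adjusted p = 0.00119), and it rose with age at NT and fell at HT, both past the test. The fall at HT was not called without replicate 2 or 3 of HT at 3 weeks or replicate 2 of HT at 8 weeks. TMV-induced protein I (PGSC0003DMG400016749) had the same calls, lost without the same libraries, with an interaction of -10.33 (adjusted p = 0.000609). Another osmotin (PGSC0003DMG400013227) was down/down, with 25.6, 79.8 and 49.7 CPM at NT and 3 weeks and an interaction of 1.07 that did not pass the test, although it did with TMM (2.37) and with DESeq2's own size factors (1.78).

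Of the 15 pathogenesis-related and defence transcripts tested, 9 were called lower and 0 higher, and 10 rose with age at NT. Over all tested transcripts these shares were 17.9%, 15.8% and 31.2%. The list held 9 up/down transcripts, for which the authors' selection fixed a large interaction beforehand. The count of lower calls is therefore no support for a difference. Selection into up/down also puts the age change at NT above that at HT, so the rises at NT are a description. At an unadjusted p under 0.05 the counts were 9 lower and 1 higher, and DESeq2 with the same totals called 9 lower and 0 higher. The median position of that list in the HT libraries at 8 weeks, relative to the NT mean, was -3.99, -2.85 and -1.83 for replicates 1, 2 and 3.

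Of the 18 transporters 7 were in up/down, carriers of nitrogen compounds among them. The high-affinity nitrate transport component (PGSC0003DMG400018129) had 2.60, 2.34 and 1.78 CPM at NT and 18.8, 13.2 and 18.4 CPM at HT at 3 weeks, and 417, 311 and 283 CPM at NT and 11.5, 102 and 79.2 CPM at HT at 8 weeks. Its interaction was -5.30 ± 0.91 (adjusted p = 0.000953). The urea active transporter (PGSC0003DMG401007615) had 3.81, 4.29 and 4.65 CPM at NT and 47.0, 26.8 and 30.6 CPM at HT at 3 weeks, and 605, 480 and 426 CPM at NT and 14.4, 155 and 110 CPM at HT at 8 weeks. In both carriers replicate 1 of HT at 8 weeks was under the HT libraries of 3 weeks and replicates 2 and 3 were above them. The urea transporter's interaction was -5.47 (adjusted p = 0.00106).

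The purine transporter (PGSC0003DMG400009706) had an interaction of -5.08 (adjusted p = 0.000609). Of all 18 transporters, 7 were called lower and 1 higher, and 12 rose with age at NT, against 17.9%, 15.8% and 31.2% of all tested transcripts. With 7 of the 18 in up/down, where the selection fixed a large interaction, the lower calls are no support for a difference. For these 7 the class also puts the NT age change above the HT one, so the rises at NT are a description. The transporter called higher, a nitrate transporter (PGSC0003DMG400025334) chosen after its values were seen, was up/up, with 16.5, 20.7 and 21.4 CPM at NT and 73.2, 62.1 and 64.2 CPM at HT at 3 weeks, and 1.71, 2.03 and 1.58 CPM at NT and 63.7, 37.4 and 54.1 CPM at HT at 8 weeks. It fell with age at NT by 3.31 on the log2 scale, whereas the nitrate transport component above rose.

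Of the 4 terpene, sterol and glycoalkaloid transcripts 1 was up/down, 2 were up/up and 1 was down/up. Sesquiterpene synthase (PGSC0003DMG400010585), an enzyme of terpene synthesis whose product is not named, had 1.13, 1.39 and 1.70 CPM at NT and 9.60, 10.3 and 12.9 CPM at HT at 3 weeks. At 8 weeks it had 243, 221 and 310 CPM at NT and 4.40, 26.3 and 20.2 CPM at HT. Its interaction was -6.89 ± 0.84 (adjusted p = 0.000264). The leucoanthocyanidin dioxygenase (PGSC0003DMG400026277) of anthocyanin synthesis had -5.61 (adjusted p = 0.000526). The phenylpropanoid list also held 2 enzymes of flavonol synthesis: both flavonol synthase/flavanone 3-hydroxylases (PGSC0003DMG400007231 and PGSC0003DMG400003097) had -4.30 and -4.23.

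In the phenylpropanoid, flavonoid and anthocyanin list, 6 of 13 transcripts were called lower and 3 higher, and 6 rose and 3 fell with age at NT. The 3 called higher were chalcone synthase J, with an interaction of 3.45, and 2 anthocyanin acyltransferases, which were chosen after their values were seen. Of the 12 cytochrome P450 transcripts 6 were called lower and 3 higher, and of the 15 glycosyltransferases 7 lower and 0 higher, with 2 higher at an unadjusted p under 0.05 and 1 higher with DESeq2 on the same totals. The shares over all tested transcripts were 17.9% lower and 15.8% higher. The phenylpropanoid list held 6 up/down and 3 down/up transcripts, the cytochrome P450 list 6 up/down and the glycosyltransferase list 7 up/down. In both classes the selection fixed the sign and a large interaction, so calls there are no support for a difference. It also fixed which of the 2 age changes lies above the other, so the age counts are a description. The UDP-glucosyltransferase family 1 protein (PGSC0003DMG402027133) rose with age at NT by 7.78 on the log2 scale, and its interaction was -4.93 (adjusted p = 0.0051).

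Regulators in up/down were fewer. A WRKY transcription factor (PGSC0003DMG400017628), of a family that acts in defence, had 2.42, 3.90 and 1.95 CPM at NT and 8 weeks and at most 0.309 CPM in all other libraries. Its interaction was -8.21 ± 1.11 (adjusted p = 0.000359). Transcription factor TSRF1 (PGSC0003DMG400017231), an ethylene response factor known from tomato, had 78.2, 53.0 and 100 CPM at NT and 2.97, 25.8 and 51.1 CPM at HT at 8 weeks. Its interaction of -3.14 (adjusted p = 0.0436) did not pass the test with TMM or when any of 8 single libraries was left out. The auxin-conjugating enzyme GH3.3 (PGSC0003DMG400024978), chosen after its values were seen, had an interaction of -5.31 (adjusted p = 0.000264).

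The up/up class held all 11 listed small heat shock proteins. The small heat shock proteins were all higher at HT at both ages, with a median heat effect of 2.38 at 3 weeks and 4.65 at 8 weeks, and 4 of 11 had an interaction called higher and 0 lower, or 8 higher and 0 lower at an unadjusted p under 0.05. Over all tested transcripts 15.8% were called higher, and 119 of 576 were higher at an unadjusted p under 0.05. The count of higher calls was 2 without the shift, 5 with DESeq2 on the same totals and 10 with TMM or with DESeq2's own size factors. Class II small heat shock protein Le-HSP17.6 (PGSC0003DMG400008187) had 15.2, 14.4 and 13.9 CPM at NT and 44.4, 48.4 and 43.4 CPM at HT at 3 weeks, and 9.18, 7.13 and 12.9 CPM at NT and 135, 99.0 and 98.9 CPM at HT at 8 weeks. The HT libraries of 8 weeks were above those of 3 weeks, and the NT libraries of 8 weeks were under those of 3 weeks. Its interaction was 1.86 ± 0.51 (adjusted p = 0.0121). Another Le-HSP17.6 transcript (PGSC0003DMG400021737), named outside the rule, had no called interaction.

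Members of this family have near-identical copies and may share reads. The other 3 called were 2 class I small heat shock proteins of 17.6 kD and Hsp20.1, chosen after their values were seen, and all 3 rose with age at HT. In contrast the chloroplastic small heat shock protein (PGSC0003DMG400003219) had 0.785, 0.683 and 0.679 CPM at NT and 112, 174 and 94.8 CPM at HT at 3 weeks, and 0.729, 0.812 and 0.630 CPM at NT and 196, 141 and 66.7 CPM at HT at 8 weeks. Its levels overlapped between the ages at both temperatures. Its interaction of 0.07 did not pass the test, with a 95% interval from -1.30 to 1.44.

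Larger chaperones and co-chaperones had 7 of 12 in up/up and 5 in down/down, and none had a called interaction in edgeR, also at an unadjusted p under 0.05, or in DESeq2 with the same totals, while TMM and DESeq2's own size factors each called 2 higher. BCL-2-associated athanogene 6 (PGSC0003DMG400000079), a co-chaperone that in Arabidopsis binds calmodulin, had 70.1, 76.6 and 98.4 CPM at NT and 1279, 1676 and 1066 CPM at HT at 3 weeks, and 282, 287 and 197 CPM at NT and 2176, 3667 and 3972 CPM at HT at 8 weeks. All 4 groups were apart, and it rose with age at NT by 1.80 on the log2 scale. Its interaction was -0.36 (adjusted p = 0.735), with a 95% interval from -1.64 to 0.93. Heat shock protein 83 (PGSC0003DMG401028907), of the HSP90 family and chosen after its values were seen, had 0 counts in all 6 NT libraries. At HT it had 0.861, 2.18 and 1.67 CPM at 3 weeks and 2.39, 2.47 and 5.34 CPM at 8 weeks, at least 79.0-fold and 190-fold higher against a floor of 3 counts over a group.

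Among the 36 up/up transcripts called higher, 19 fell with age at NT, 9 rose at HT and 9 had neither age change called. Over all tested transcripts 14.9% fell at NT and 5.38% rose at HT. The interaction is the difference of these 2 age changes, so the counts are a description. Non-specific lipid-transfer protein 1 (PGSC0003DMG400011954) had 24.2, 24.2 and 22.7 CPM at NT and 165, 195 and 182 CPM at HT at 3 weeks, and 1.91, 2.01 and 3.96 CPM at NT and 327, 175 and 201 CPM at HT at 8 weeks. It fell at NT by 3.02, its HT libraries overlapped between the ages, and its interaction was 3.55 ± 0.60 (adjusted p = 0.000906). Rubisco activase (PGSC0003DMG400011072), which keeps the carbon-fixing enzyme active and is heat-sensitive, was chosen after its values were seen. It had 38.7, 35.6 and 44.0 CPM at NT and 267, 380 and 240 CPM at HT at 3 weeks, and 7.44, 7.99 and 12.5 CPM at NT and 546, 187 and 433 CPM at HT at 8 weeks, with an interaction of 2.48 (adjusted p = 0.0095).

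Ascorbate peroxidase (PGSC0003DMG401001731), which removes hydrogen peroxide, rose with age at HT. It had 5.15, 6.22 and 4.29 CPM at NT and 32.5, 39.8 and 32.3 CPM at HT at 3 weeks, and 5.47, 3.04 and 4.66 CPM at NT and 86.7, 175 and 146 CPM at HT at 8 weeks. The NT libraries overlapped between the ages and the HT libraries did not. Its interaction was 2.21 ± 0.57 (adjusted p = 0.00878), and its log2 age change at HT of 1.81 passed the test. Vetispiradiene synthase (PGSC0003DMG400018286), a sesquiterpene enzyme, rose at HT by 2.12 with an interaction of 2.06 (adjusted p = 0.0107), and RNase Phy3 (PGSC0003DMG400027454) rose at HT by 2.10 and fell at NT by 1.74. Vetispiradiene synthase 1 (PGSC0003DMG400018245) rose with age at both temperatures, by 1.39 at NT and 1.47 at HT. Its interaction of 0.39 did not pass the test.

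The largest called interactions among named up/up transcripts were 4.40 for a cytochrome P450 monooxygenase (PGSC0003DMG400026882), 4.31 for an abhydrolase domain protein (PGSC0003DMG400014029), 4.30 for a histidine-rich glycoprotein (PGSC0003DMG400000777) and 4.25 for KEAP1 (PGSC0003DMG400011862). That of the histidine-rich glycoprotein was 2.75 without replicate 1 of HT at 8 weeks, and that of KEAP1 was 3.19 and not called without replicate 1 of NT at 3 weeks. The E3 ubiquitin ligase RMA1H1 (PGSC0003DMG400021683), of a family that marks membrane proteins for breakdown, fell with age at NT by 4.18 and had 3.58 (adjusted p = 0.000811). Another RMA1H1 transcript (PGSC0003DMG400021684), named outside the rule, had no called interaction. Xyloglucan endotransglucosylase-hydrolase XTH6 (PGSC0003DMG400000408) had 33.5, 5.09 and 5.37 CPM at NT and 3 weeks, and its interaction of 2.68 was 1.19, and not called, without the first of these libraries.

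The 2 up/up transcripts called lower were a putative bHLH transcription factor (PGSC0003DMG401020927) and a conserved gene of unknown function (PGSC0003DMG400041623), named after its values were seen. Both had 0 counts at NT and 3 weeks, so their fitted interactions of -4.79 and -4.06 depend on the prior count of the fit, and leaving out single libraries ended the bHLH factor's call. The up/up class also held 16 of 22 receptor-like and other protein kinases, 9 of 13 retroelement-derived transcripts and 10 of 18 transporters. The kinase list, a search on names, also took in gibberellin receptor GID1, the channel subunit GluR5 and choline/ethanolamine kinase. Its counts are therefore not of protein kinases alone. The share of all transcripts that were up/up was 46.6%. In the whole kinase list the interaction was called higher for 1 and lower for 3. In the whole retroelement list it was called higher for 0 and lower for 0. The retroelements had 0 and 1 at an unadjusted p under 0.05 and 0 and 0 with DESeq2 on the same totals. Over all tested transcripts 15.8% were called higher and 17.9% lower. The kinase list held 3 up/down transcripts, for which the authors' selection fixed the sign and a large interaction beforehand. Lower calls among these 3 are no support for a difference.

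For 147 of the 161 down/down transcripts tested the interaction did not pass the test. The class held 9 of 29 transcription factors, 8 of 16 ubiquitin ligases and F-box proteins and 5 of 12 larger chaperones, where 28.1% of all transcripts were down/down. In 116 of the 163 the NT library of replicate 1 at 3 weeks was the lowest of its group, and in 39 it was below the highest HT library of that age. Its median position relative to the group mean was -0.84 on the log2 scale, against 0.45 and 0.19 for replicates 2 and 3. The 3-week libraries were apart in 116 of 163 and the 8-week libraries in 153. The median interaction of the class, -0.61, turned to 0.68 with TMM and 0.07 with DESeq2's own size factors.

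Chaperone protein DNAj (PGSC0003DMG400022151), a partner that hands proteins to HSP70, had 11.8, 52.0 and 39.7 CPM at NT and 6.33, 8.73 and 10.6 CPM at HT at 3 weeks, and 48.0, 76.4 and 108 CPM at NT and 5.01, 8.29 and 11.1 CPM at HT at 8 weeks. Replicate 1 of NT at 3 weeks was near the HT libraries and the other 2 were well above them. Its interaction of -1.24 (adjusted p = 0.274) did not pass the test. Ethylene response factor 4 (PGSC0003DMG400016004), a transcriptional repressor in Arabidopsis, had 49.2, 269 and 246 CPM at NT and 41.5, 48.3 and 48.4 CPM at HT at 3 weeks, and 243, 370 and 501 CPM at NT and 74.1, 102 and 84.8 CPM at HT at 8 weeks. Its interaction was -0.07, with a 95% interval from -1.75 to 1.62.

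The MADS-box protein AGL8 homolog (PGSC0003DMG400004081), of the family of flowering and meristem regulators, rose with age at both temperatures. It had 30.5, 38.8 and 36.0 CPM at NT and 13.1, 8.11 and 14.0 CPM at HT at 3 weeks, and 383, 351 and 335 CPM at NT and 51.8, 152 and 109 CPM at HT at 8 weeks. All 4 groups were apart. It rose by 3.50 at NT and by 3.00 at HT on the log2 scale, and its interaction of -0.19 did not pass the test, with a 95% interval from -1.53 to 1.14. The rise at HT was called with any 1 of the 12 libraries left out.

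Among the 14 called down/down transcripts, 10 rose with age at NT and 3 fell at HT, against 31.2% and 2.08% of all tested transcripts. These counts are likewise a description, since the interaction is the difference of the same age changes. A NAC domain protein (PGSC0003DMG400001223), chosen after its values were seen, had 0.161, 0.585 and 0.320 CPM at NT and 0.161, 0.0574 and 0.0303 CPM at HT at 3 weeks, and 6.07, 8.83 and 8.16 CPM at NT and 0.0674, 0.0436 and 0.0812 CPM at HT at 8 weeks. Its interaction was -4.81 (adjusted p = 0.00177). The arachidonic acid-induced DEA1 (PGSC0003DMG400039214), also chosen after its values were seen, fell with age at HT, with 8.62, 6.83 and 8.09 CPM at HT at 3 weeks and 1.45, 1.67 and 1.80 CPM at HT at 8 weeks. Its NT levels were 48.5 to 78.9 CPM at 3 weeks and 52.2 to 84.8 CPM at 8 weeks, and its interaction was -2.34 (adjusted p = 0.00396). Its fall at HT was called with any 1 of the 12 libraries left out.

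A pectin methylesterase inhibitor (PGSC0003DMG400012017), which holds back pectinesterase, also fell with age at HT, by 2.43, and had an interaction of -3.52 (adjusted p = 0.00601). Jasmonate O-methyltransferase (PGSC0003DMG400003743), which makes volatile methyl jasmonate, rose with age at NT by 3.28 and had -3.01 (adjusted p = 0.0112). Calmodulin (PGSC0003DMG400033565), a calcium sensor, had -2.83, a VQ motif-containing protein (PGSC0003DMG400009434) had -3.38 and a nodulin (PGSC0003DMG400029744) had -3.35. None of these 4 last interactions passed the test with TMM, and that of the VQ protein was not called without replicate 2 of HT at 3 weeks, and those of calmodulin and the nodulin were not called without any of several single libraries.

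Across the table, levels changed more with age at NT than at HT. The change from 3 to 8 weeks was larger in absolute size at NT in 425 of 576 transcripts, with medians of 1.67 at NT and 0.73 at HT. At NT 266 of 576 (46.2%) passed the test, 180 higher (31.2%) and 86 lower (14.9%), and at HT 43 (7.47%) did, 31 higher and 12 lower. The gap was smaller by library order. The 3 libraries of 8 weeks lay on one side of the 3 of 3 weeks in 314 of 580 (54.1%) at NT and 228 (39.3%) at HT. Of the 103 transcripts with an interaction called lower, 99 rose with age at NT, and of the 91 called higher, 72 fell at NT. The interaction is the difference of the same 2 age changes, so these overlaps are a description. At NT the split of higher and lower was 108 and 228 with TMM and 129 and 171 with DESeq2's own size factors, so which direction was more common at NT depends on the scaling. At HT it was 26 and 17 with TMM.

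The count at HT rested on single libraries. Without replicate 1 of HT at 8 weeks 104 transcripts passed at HT, 69 higher and 35 lower, among them 41 of the 43, and at NT the counts were 184 and 89. Without replicate 2 or 3 of that group 27 and 33 passed at HT. Relative to the HT mean at 3 weeks, the median position of the up/down class was -1.27, 0.19 and 1.29 in HT replicates 1, 2 and 3 at 8 weeks, and that of the down/up class was 0.31, -1.21 and -0.66. So replicate 1 lay farthest from the NT libraries of 8 weeks in both classes. The interaction counts moved little without it, to 93 higher and 102 lower, and 184 of the 194 calls remained.

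**Figure D4:**
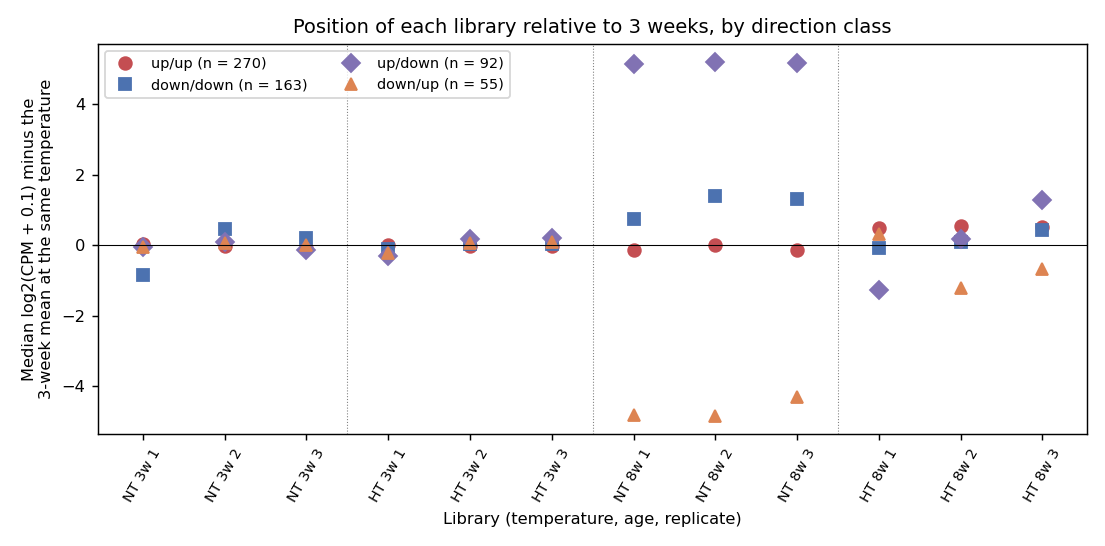
For each library, from left to right by group, the points give the median over a direction class of log2(CPM + 0.1) minus the 3-week mean at the same temperature. The 3 NT libraries of 8 weeks lie near 5 for up/down and near -5 for down/up, and the 3 HT libraries of 8 weeks spread from -1.27 to 1.29 for up/down.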

How the data were processed

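Poly(A) RNA from the upper 5 leaves was sequenced in 12 strand-specific libraries, 3 for each of 4 groups, and each sample's title gave its group and replicate number. Not given in the sources used here were the aligner, the counter and the build. Per the file headers, the deposited table holds the authors' raw counts per transcript and library for the 580 transcripts that they listed at both ages. The authors' deposited log2 fold changes and p-values of HT against NT, with no test named in the headers, were used only to describe that selection: every listed transcript had at each age a p-value under 0.01 together with a log2 fold change of 1.5 or more in either direction. The authors' RPKM values, which set reads against transcript length and library total, were used to solve the library totals, because the sum over a selected list is not a library size. Totals ran from 52514661 to 66602938. The authors' fold changes departed from counts over these totals by a constant shift of -0.40 (log2) at 3 weeks and -0.10 at 8 weeks, which was applied between HT and NT. No identifier had a match among the reference genes (0 of 580), so product names are those of the files, with no positions or sequences.

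The interaction and the age changes were tested with edgeR 4.0.16 (glmQLFit, glmQLFTest, filterByExpr, Benjamini-Hochberg adjustment over the 576 transcripts kept, threshold 0.05) in R 4.3.3, with 1 mean per group over all 12 libraries. Age changes used the totals without the shift. The test was also tried on simulated counts. Alternatives were the totals without the shift, TMM, DESeq2 1.42.0, no filter, a stricter threshold, the replicate block and leaving out each library. DESeq2 with the library totals for the age changes was added after the data were seen. Most samples with the same number did not deviate together (18 pairs, r from -0.149 to 0.445, of which 5 were over 0.1), and the numbers were not taken as pairs. The highest r, 0.445, was between replicate 1 of NT at 3 weeks and replicate 1 of NT at 8 weeks. No 2 libraries held identical counts.

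The members and the product lists, 32 searches on product names, were chosen with earlier results of these data known, and search patterns that misread product names were corrected after results were seen. A search can still take in products outside the named family and miss products under other names. The list of larger chaperones, for example, took in an Fkbp-rapamycin associated protein. Named transcripts have a product name, 10 or more counts on average in the highest group, and HT and NT libraries apart at each age. They are up to 6 of up/down and of down/up with the largest smaller heat effect, up to 5 calls in each direction of up/up and down/down with the largest interaction, and up to 3 of each list of at least 4 tested members with the highest mean CPM. A further search of up/up and down/down for an interaction near 0 with an SE under 0.35 and 100 or more counts found none. Where the text names a transcript outside this rule, it says so. Tables were handled with Python 3.11.15 and pandas 2.3.3.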

Additional observations from a re-analysis of the deposited data

Results flagged for a closer look

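Each transcript below had a called interaction of heat and age in edgeR over all 12 libraries. Each value is the interaction on the log2 scale, the heat effect at 8 weeks minus that at 3 weeks. For up/down and down/up the authors' selection, a log2 fold change of 1.5 or more in opposite directions at the ages, fixed a large interaction beforehand, so the values of these classes are a description and the test is no support for them. No explanation was tested.

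In the down/up class, where sign and size follow from the selection, the values were 13.72 for the stigma expressed protein, 10.42 and 10.37 for the multicystatins (PGSC0003DMG400026899 and PGSC0003DMG400005950), 8.184 for aspartic protease inhibitor 5, 7.534 for the Kunitz-type protease inhibitor, 7.205 for proteinase inhibitor type-2 CEVI57 and 6.702 for the C2H2L domain transcription factor. The lipid-transfer proteins had 5.249 (PGSC0003DMG400025537) and 4.887 (AKCS9). The chlorophyll-binding proteins had 4.981 (PGSC0003DMG400008300), 4.627 (PGSC0003DMG400013414) and 4.6 (PGSC0003DMG400013461). Histone H2A had 4.742, kinesin heavy chain 4.111, fasciclin-like arabinogalactan protein 1 had 4.044 and pectinesterase 3.669.

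In the up/down class, where sign and size follow likewise, the values were -10.33 for TMV-induced protein I, -8.96 for osmotin OSML15, -8.236 for a glucosyltransferase (PGSC0003DMG400016610), -8.209 for the WRKY transcription factor, -7.864 for major pollen allergen Ory s 1 (PGSC0003DMG400026222) and -6.888 for sesquiterpene synthase. Cationic peroxidase 1 (PGSC0003DMG400020795) had -6.138, and -9.51 without replicate 3 of HT at 8 weeks, a library with 5.94 CPM against 0.0506 and 0.348 in the others of its group. A cytochrome P450 (PGSC0003DMG400033636) had -6.038, PR1 protein -5.818, ethylene-responsive proteinase inhibitor 1 (PGSC0003DMG400003056) -5.805 and leucoanthocyanidin dioxygenase -5.613. The carriers had -5.466 (urea), -5.3 (nitrate) and -5.083 (purine). Class I chitinase had -4.951, the UDP-glucosyltransferase family 1 protein -4.933, the flavonol synthases -4.3 and -4.234, zeatin O-glucosyltransferase (PGSC0003DMG400027291) -3.247, a UDP-glucuronosyltransferase (PGSC0003DMG400012578) -3.168 and TSRF1 -3.14.

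In the up/up class the sign is free. The values were 4.397 for the cytochrome P450 monooxygenase, 4.31 for the abhydrolase domain protein, 4.299 for the histidine-rich glycoprotein, 4.249 for KEAP1, 4.143 for RNase Phy3, 3.575 for the E3 ubiquitin ligase RMA1H1 and 3.55 for non-specific lipid-transfer protein 1. XTH6 had 2.68, ascorbate peroxidase 2.213, vetispiradiene synthase 2.056, the class II small heat shock protein 1.865 and the L-ascorbate oxidase homolog (PGSC0003DMG400006516) 1.525, whose call ended without the shift and without replicate 2 or 3 of HT at 3 weeks. The bHLH factor had -4.789, with 0 counts in its NT group at 3 weeks.

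In the down/down class the sign is free as well. The values were -3.518 for the pectin methylesterase inhibitor, -3.378 for the VQ motif-containing protein, -3.355 for the nodulin, -3.01 for jasmonate O-methyltransferase and -2.825 for calmodulin.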

How the results depend on the processing

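No called interaction of a named transcript changed sign in the alternatives run, while some uncalled ones near 0 did. The values below are counts of higher and lower calls. Over all transcripts the interaction had 91 and 103, and TMM gave 157 and DESeq2's own size factors 139 higher. In up/up (36 and 2) TMM gave 99 and 0, DESeq2's own size factors 89 and 0, DESeq2 with the library totals 1 lower, and an adjusted p under 0.01 gave 16 and 0. In down/down (0 and 14) TMM gave 3 and 3, DESeq2's own size factors 4 higher, and an adjusted p under 0.01 gave 4 lower. For the age change at NT (180 and 86) TMM gave 108 and 228 and DESeq2's own size factors 171 lower. At HT (31 and 12) DESeq2's own size factors gave 61 and 26, DESeq2 with the library totals 79 and 28, and an adjusted p under 0.01 gave 5 and 1. The cause was not tested, except that a stricter threshold calls fewer by construction.

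With the replicate block the interaction had 83 and 101 calls over all transcripts and 0 lower in up/up, and the age change at HT had 16 and 4, which were 20 of the 43 calls. The 4 rises at HT in the proteinase inhibitor list, multicystatin's among them, were not called with the block. Most same-numbered libraries did not deviate together, but some did, most of all replicate 1 of NT at 3 and 8 weeks. The calls lost with the block are therefore less certain. With single libraries left out, the lower calls ranged from 0 to 2 in up/up and from 7 to 20 in down/down, with 0 to 2 higher there, and the age change at HT ranged from 5 to 69 higher and from 2 to 35 lower. Of the named transcripts, DESeq2's own size factors and TMM ended the call of 1 and 6 and made that of 6 and 8, and the block ended 4.

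The table holds only transcripts selected on these libraries, so TMM and DESeq2's own size factors rest on changed transcripts. Depth limits the transcripts near 0, where a group at 0 allows up to 3 counts over its libraries.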
